A study of Mus musculus with 15 samples.

Results

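The Nrf2 pathway genes described here are 10 rows of a table of 17271 genes, taken by symbol: Nfe2l2, Keap1, Gpx2, Nqo1, Gclc, Gclm, Hmox1, Txnrd1, Srxn1 and Slc7a11. All 10 were in the table and none was removed by a filter. RNA was measured by poly(A) RNA-seq in 15 mouse mammary tumours of BALB/c background, all of them p53 null, that belonged to 4 models. There were 4 tumours of 2151R, a single one of T11, 2 of 2225L and 8 of 2208L. Of the 2208L tumours, 4 are titled PBS, 3 are titled 3day nt and 1 carries neither word. Replicates 1 and 2 of 2151R carry codes of unstated meaning in their titles (53ca in replicate 2), and the titles of replicates 3 and 4 carry NT. The titles also give a library prefix, which is ROSEN in replicate 2 of 2225L and replicate 1 of 2208L and CP in all others. No age or further treatment is given, nor whether the tumours of a model came from separate animals, so the p-values measure the spread between these samples only. Every value is a log2 value relative to a reference level of the same gene that the authors did not state. Differences between tumours can be read for each gene, while levels of different genes cannot be compared and sequencing depth is unknown.

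Nrf2, the transcription factor encoded by Nfe2l2, switches on genes that protect cells from oxidants and reactive chemicals. Keap1 binds Nrf2 and hands it to a Cul3 ubiquitin ligase for destruction, and oxidants or electrophiles that modify Keap1 let Nrf2 accumulate. Because this control acts on the protein, the mRNA of Nfe2l2 does not measure Nrf2 activity, which is usually read from its targets. Among these, Slc7a11 imports cystine, Gclc and Gclm form the enzyme that starts glutathione synthesis, and Gpx2 spends glutathione to reduce peroxides, chiefly in epithelia. Srxn1 repairs oxidised peroxiredoxins, Txnrd1 keeps thioredoxin reduced, Nqo1 detoxifies quinones and Hmox1 breaks down haem.

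The members did not move as 1 block between the models. In 2151R against 2208L, 5 of 10 were higher (Nfe2l2, Gclc, Gclm, Srxn1 and Slc7a11), 2 were lower (Keap1 and Gpx2) and 3 did not pass (Nqo1, Hmox1 and Txnrd1), tested with limma at an adjusted p under 0.05 (Benjamini-Hochberg, over all genes). These models differed at 48.8% of all genes, with 26.1% higher and 22.7% lower, so 7 calls among 10 stand against a high background. The 7 called members were also the 7 whose values did not overlap between the groups, as held for 38.8% of all genes. The median difference was 0.66 log2 units over the members and 0.10 over all genes. In 2225L against 2208L, 2 members were higher (Gpx2 and Gclm) and 2 were lower (Srxn1 and Slc7a11), where 32.9% of all genes were called, 15.6% higher and 17.3% lower. The groups did not overlap at 5 members and at 31.7% of all genes. In 2225L against 2151R, Gpx2 was higher and Nfe2l2, Gclc, Txnrd1, Srxn1 and Slc7a11 were lower, where 48.6% of all genes were called, 22.8% higher and 25.8% lower. Here 8 members and 62.4% of all genes did not overlap. The 3 comparisons share samples and are not independent of each other. The libraries of 2151R carry a consecutive run of numbers of their own, so an effect of the model and one of the library series cannot be told apart. Skeletal muscle markers were high in 3 tumours, with centred means of 5.48 in replicate 3 of 2151R and of 9.10 and 8.56 in replicates 6 and 8 of 2208L, against at most 1.64 in the other 12. Member calls that differ without these 3 tumours are given beside the gene.

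**Figure D1:**
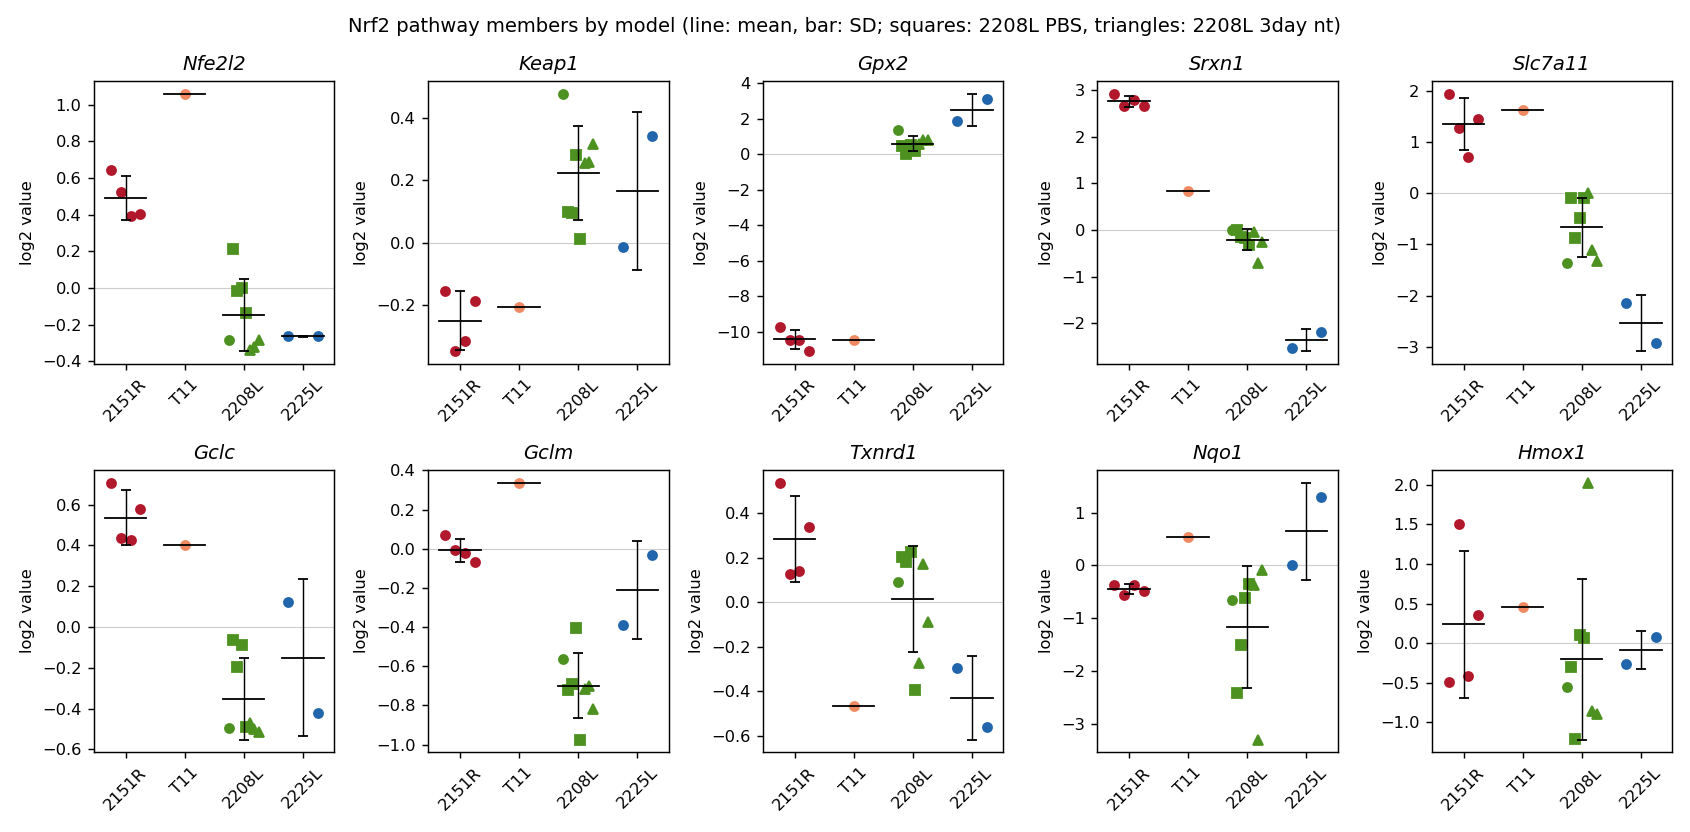
The log2 value of each of the 10 genes (vertical axes, a separate scale in each panel) in every tumour, by model; lines mark means, bars SDs, squares 2208L PBS and triangles 2208L 3day nt. Gpx2 separates 2151R and T11 (-9.73 and below) from 2208L and 2225L (0.00 and above), Srxn1 takes 4 separate levels, and Nqo1 and Hmox1 spread widely within 2208L.

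Gpx2, the glutathione peroxidase of epithelia, showed the widest split of the 10. In 2151R it lay at -9.73, -10.48, -10.48 and -11.08, and in T11 at -10.48. In the 8 tumours of 2208L the lowest value was 0.00, the median 0.55 and the highest 1.38, and the tumours of 2225L lay at 1.85 and 3.14. No tumour of 2151R or T11 came near those of 2208L or 2225L, and the tumours of 2225L lay above all of 2208L. The difference of 2151R from 2208L was -11.04 (SE 0.31, limma adjusted p 1.52e-11), and that of 2225L from 2151R was 12.94 (SE 0.43, limma adjusted p 3.43e-10). The value of -10.48 is shared exactly by 2 tumours of 2151R and by T11, while 1 tumour lies below it. What this shared value stands for is not stated, so the size of these differences is uncertain and no fold is given. With the shared values left out, 2151R still lay below 2208L (limma adjusted p 2.93e-09). Scaling by quantiles left that difference at -10.29, but moved the difference of T11 from the 2208L mean from -11.07 to -7.68.

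Gpx2 was higher in 2225L than in 2208L by 1.90 (SE 0.40, limma adjusted p 0.00257), or 3.74-fold. This call did not hold without replicate 2 of 2225L (1.26, limma adjusted p 0.0703), with sample weights (2.07, limma adjusted p 0.11) or with an intensity trend in the fit (1.90, limma adjusted p 0.0874). Replicate 2 is the tumour of 2225L with the library prefix ROSEN, so tumour and prefix cannot be told apart within this model. Gpx2 (ENSMUSG00000042808.8) is annotated at chr12:76792333-76795554 on the minus strand of GRCm38. A processed pseudogene, Gpx2-ps1, lies at chr7:100264675-100265245, and how reads were divided between them is not stated, so the values of Gpx2 may include reads of the copy.

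The low Gpx2 values went with low epithelial markers. Of 10 such markers (Epcam, Cdh1, Krt8, Krt18, Cldn3, Cldn4, Cldn7, Grhl2, Esrp1 and Elf3), 10 were lower in 2151R than in 2208L and 10 were higher in 2225L than in 2151R. None passed between 2225L and 2208L by limma. Of all genes, 22.7% were lower in the first of these comparisons, 22.8% were higher in the second and 32.9% were called in the third. The mean value of the 10 markers, after each gene was centred over the 15 tumours, ran from -4.49 to -3.40 in 2151R and from 2.15 to 2.76 in 2208L. In 2225L it was 2.46 and 2.49, and in T11 -8.02. Cdh1, the epithelial cadherin, averaged -5.54 ± 0.39 (SD, n = 4) in 2151R against 0.30 ± 0.18 (SD, n = 8) in 2208L. The part of the epithelial markers in the Gpx2 difference was not tested. In bulk tumours, fewer cells of a type and less RNA per cell cannot be told apart.

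The genes whose values followed Gpx2 most closely over the 15 tumours were Tmem40 (Pearson r 0.995), Kctd14 (0.994) and Crb3 (0.992), of 14180 genes compared. Crb3 encodes an apical polarity protein of epithelia. The tumours form separate low and high clusters at Gpx2, so these correlations mainly record that split. Crb3, for example, averaged -5.85 in 2151R, -7.13 in T11, 0.44 in 2208L and 1.51 in 2225L.

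The 250 bases upstream of the annotated Gpx2 start (RefSeq, GRCm38.p6, chr12:76795555-76795804, minus strand) are shown because this gene differed most. They were searched on both strands for the core of the antioxidant response element, to which Nrf2 binds with small Maf proteins, in its forms TGACNNNGC and TGAGNNNGC.
Gpx2 upstream: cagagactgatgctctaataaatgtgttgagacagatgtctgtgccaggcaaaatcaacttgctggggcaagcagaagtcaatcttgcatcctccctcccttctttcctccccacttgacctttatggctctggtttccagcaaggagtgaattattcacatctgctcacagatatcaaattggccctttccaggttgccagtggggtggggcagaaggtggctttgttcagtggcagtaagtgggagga
Neither form is in this window, which is why no base is in capitals. That says only that these letters do not occur there.

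The other glutathione peroxidases moved in different directions. Of 5 that the table holds (Gpx1, Gpx3, Gpx4, Gpx7 and Gpx8), Gpx1 was lower in 2151R than in 2208L and Gpx8 was higher. In that comparison 22.7% of all genes were lower and 26.1% higher. Gpx1, the broadly expressed cytosolic form, averaged -0.39 ± 0.13 (SD, n = 4) in 2151R against 0.57 ± 0.45 (SD, n = 8) in 2208L, and the groups differed by -0.95 (SE 0.23, limma adjusted p 0.00363). Gpx8, a membrane protein of the endoplasmic reticulum, moved opposite to Gpx2. It averaged 1.81 ± 0.15 (SD, n = 4) in 2151R against -0.95 ± 0.65 (SD, n = 8) in 2208L. T11 lay at 2.58, and the tumours of 2225L averaged -1.34 ± 0.052 (SD, n = 2). It was higher in 2151R than in 2208L by 2.76 (SE 0.31, limma adjusted p 6.96e-06), or 6.76-fold. Gpx4, which reduces lipid peroxides in membranes and restrains ferroptosis, did not pass between 2151R and 2208L (-0.38, 95% interval -0.90 to 0.15). Nor did the secreted Gpx3 (0.36, 95% interval -0.77 to 1.49). None of the 5 passed between 2225L and 2208L by limma, although Gpx7, which oxidises folding proteins in the endoplasmic reticulum, averaged 1.91 higher in 2225L (limma adjusted p 0.0624). The share called there was 32.9% of all genes. Without the 3 tumours with high muscle markers, 1 of the 5 was higher in 2225L than in 2208L. In 2225L against 2151R, Gpx7 was higher (2.23, SE 0.80, limma adjusted p 0.0345) and Gpx8 lower. The shares over all genes were 22.8% higher and 25.8% lower.

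**Figure D2:**
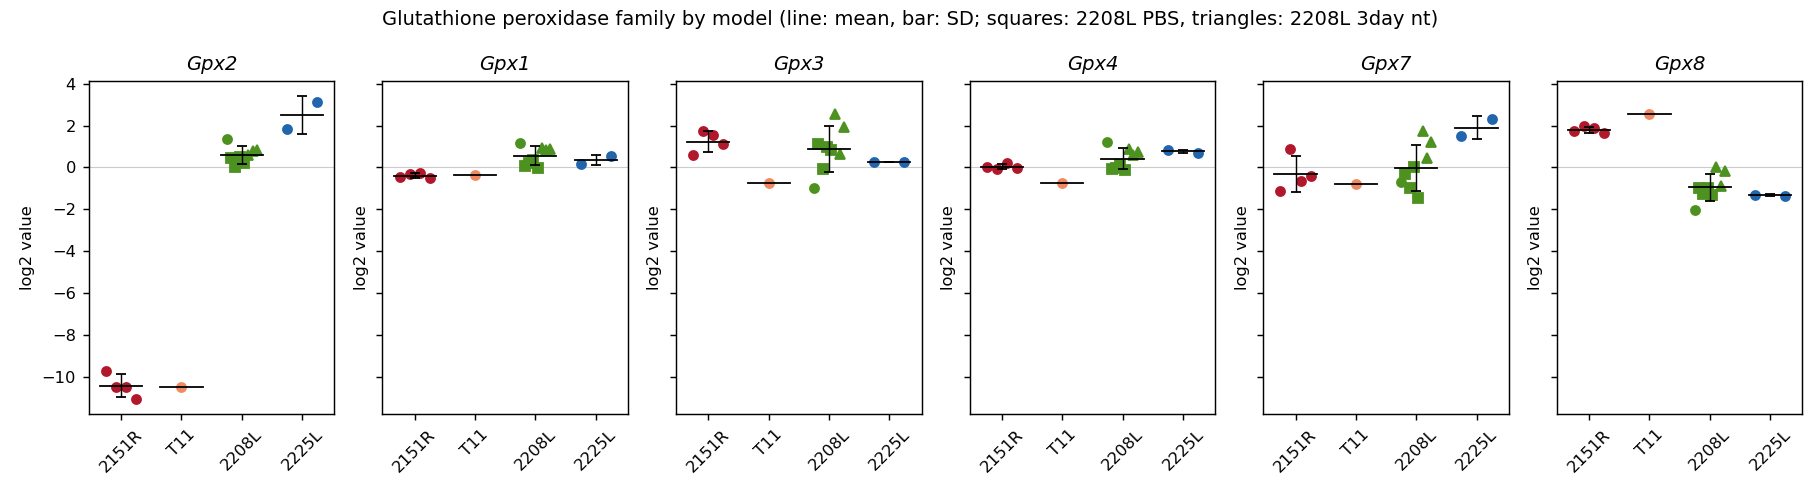
The log2 values of Gpx2 and 5 other glutathione peroxidases (shared vertical axis) in every tumour, by model; lines mark means, bars SDs, squares 2208L PBS and triangles 2208L 3day nt. Only Gpx2 falls below -9 in 2151R and T11, and Gpx8 is the family member that is higher in both than in every tumour of 2208L and 2225L.

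Srxn1 separated all 4 models without overlap. This gene encodes sulfiredoxin, which reactivates peroxiredoxins after they are over-oxidised. It lay at 2.92, 2.65, 2.79 and 2.67 in 2151R, at 0.83 in T11, from -0.70 to 0.00 in 2208L (median -0.16) and at -2.52 and -2.19 in 2225L. The order was therefore 2151R, T11, 2208L and 2225L, and each group lay wholly above the next. Srxn1 was higher in 2151R than in 2208L by 2.96 (SE 0.15, limma adjusted p 2.47e-09), or 7.79-fold. It was lower in 2225L than in 2208L (difference -2.15, SE 0.19, limma adjusted p 3.56e-06), or 4.44-fold, and lower than in 2151R by -5.11 (SE 0.21), or 34.6-fold. These 3 calls held in each of 28, 25 and 19 alternatives.

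Slc7a11 took a similar order. It encodes the cystine carrier of the system xc- exchanger, which supplies cysteine for glutathione. In 2151R it lay at 1.94, 1.27, 0.71 and 1.45, and in T11 at 1.62, within the range of 2151R. In 2208L it ran from -1.37 to 0.00 (median -0.68), and in 2225L it was -2.14 and -2.92. No tumour of 2151R or T11 overlapped 2208L, and both tumours of 2225L lay below all others. The difference of 2151R from 2208L was 2.01 (SE 0.32, limma adjusted p 0.000185), or 4.03-fold. That of 2225L from 2208L was -1.87 (SE 0.42, limma adjusted p 0.00407), or 3.64-fold, and that of 2225L from 2151R -3.88 (SE 0.46, limma adjusted p 1.52e-05), or 14.7-fold. The call between 2225L and 2208L did not hold without replicate 2 of 2225L (-1.48, limma adjusted p 0.0699) or with sample weights (-1.93, limma adjusted p 0.0864).

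The macrophage markers also differed between these models, with 7 of 9 (from Csf1r, Adgre1, Cd68, Mrc1, Msr1, Cd163, C1qa, C1qb and Mertk) higher in 2151R than in 2208L and 4 of 9 lower in 2225L than in 2208L, or 5 and 2 without the 3 tumours with high muscle markers. Their centred mean ran from 0.61 to 0.97 in 2151R, from -1.20 to 0.50 in 2208L and from -1.38 to -0.87 in 2225L, and was 1.24 in T11. Of 5 neutrophil markers (S100a8, S100a9, Csf3r, Cxcr2 and Retnlg), 3 were lower in 2151R and 5 in 2225L than in 2208L, and Retnlg was not called in 2151R without the 3 tumours with high muscle markers (limma adjusted p 0.106). Of 4 endothelial markers (Pecam1, Cdh5, Tek and Kdr), 4 were higher in 2151R than in 2208L. Among 5 adipocyte markers (Adipoq, Plin1, Cfd, Fabp4 and Lep), 2 were higher in 2151R than in 2208L and 0 in 2225L. The adipocyte centred mean ran from 1.09 to 4.18 in 2151R, from -4.24 to 1.68 in 2208L and from -3.41 to 1.23 in 2225L. The centred mean of 5 mesenchymal markers (Vim, Zeb1, Twist1, Fn1 and Sparc) was 1.92 in T11, from 0.69 to 1.16 in 2151R, from -0.87 to 0.05 in 2208L and from -1.63 to -1.15 in 2225L, with no overlap. Of these 5, 4 were lower in 2225L than in 2151R and 2 were lower in 2225L than in 2208L. In 2151R against 2208L, 2 were higher, while Twist1 was lower (-0.79, limma adjusted p 0.000347) and Fn1 and Sparc were not called. Lastly, 3 of 3 mammary basal markers (Krt5, Krt14 and Trp63) were higher in 2225L. Of all genes, 48.8% were called in 2151R against 2208L, 32.9% in 2225L against 2208L and 48.6% in 2225L against 2151R. The part of these cell types in the Srxn1 and Slc7a11 differences was not tested.

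Upstream windows that hold a match to the same 2 forms are shown for the members of the promoter table that have one, because Srxn1 and Slc7a11 differ most after Gpx2 and Srxn1 has 2 matches. Capitals mark the 9 matched bases, and up to 15 bases on each side are shown, all read 5′ to 3′ on the strand of the gene.
Srxn1, chr2:152105351-152105389, 158 to 150 bases upstream, match on the opposite strand: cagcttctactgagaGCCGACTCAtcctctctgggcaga
Srxn1, chr2:152105464-152105502, 45 to 37 bases upstream, match on the gene's strand: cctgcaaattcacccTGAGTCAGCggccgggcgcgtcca
Slc7a11, chr3:50443687-50443725, 97 to 89 bases upstream, match on the opposite strand: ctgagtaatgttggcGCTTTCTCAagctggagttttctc
Gclm, chr3:122245408-122245446, 134 to 126 bases upstream, match on the opposite strand: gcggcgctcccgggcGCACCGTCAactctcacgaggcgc
Txnrd1, second of 3 starts, chr10:82859099-82859137, 92 to 84 bases upstream, match on the opposite strand: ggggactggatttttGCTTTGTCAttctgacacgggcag
Nfe2l2, chr2:75704880-75704913, 240 to 232 bases upstream, match on the gene's strand: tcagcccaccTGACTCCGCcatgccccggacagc
The Srxn1 match nearer to the start also holds the AP-1 motif TGANTCA, to which Fos and Jun proteins bind. Of 8 members in the promoter table, 5 had a match in the 250 bases upstream of at least 1 start, as did 25.7% of 27025 genes. Keap1, Nqo1 and Gpx2 had none there. Gclc and Hmox1 were not matched to that table. A match is a run of letters and not evidence of binding in these tumours.

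The core regulators differed by less, and in opposite directions. Nfe2l2, which encodes Nrf2, lay at 0.65, 0.52, 0.39 and 0.41 in 2151R and at 1.06 in T11. In 2208L it ran from -0.34 to 0.21 (median -0.21), and both tumours of 2225L were at -0.26. All tumours of 2151R and T11 lay above all of 2208L, while 2225L lay inside the range of 2208L. Nfe2l2 was higher in 2151R than in 2208L by 0.64 (SE 0.13, limma adjusted p 0.00114), or 1.56-fold. It was lower in 2225L than in 2151R (difference -0.75, SE 0.18, limma adjusted p 0.00427), but not with sample weights (-0.73, limma adjusted p 0.0749). It did not pass between 2225L and 2208L (-0.12, 95% interval -0.48 to 0.24).

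Keap1, the inhibitor, lay at -0.15, -0.35, -0.31 and -0.19 in 2151R, at -0.21 in T11, from 0.01 to 0.48 in 2208L (median 0.26) and at -0.01 and 0.34 in 2225L. It was lower in 2151R than in 2208L (difference -0.47, SE 0.12, limma adjusted p 0.00574), or 1.39-fold, with no overlap. This call was lost without the 3 tumours that had high skeletal muscle markers (-0.43, limma adjusted p 0.053). In 2225L against 2151R the difference of 0.42 did not pass (limma adjusted p 0.0613), but it passed without replicate 1 of 2225L (0.59, limma adjusted p 0.0288) and with each sample centred on its median (0.49, limma adjusted p 0.019). An antisense gene, Gm16754, shares 510 of the 4693 exon bases of Keap1. Whether strand was used in counting is not stated, so reads of the 2 genes cannot be told apart there.

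Gclc and Gclm, the catalytic and the modifier subunit of glutamate-cysteine ligase, were both higher in 2151R than in 2208L. Gclc lay at 0.71, 0.44, 0.42 and 0.58 in 2151R, at 0.40 in T11, from -0.51 to -0.07 in 2208L (median -0.48) and at 0.12 and -0.42 in 2225L. Its difference of 2151R from 2208L was 0.89 (SE 0.15, limma adjusted p 0.000234), or 1.85-fold. Gclm lay at 0.07, -0.01, -0.02 and -0.07 in 2151R, at 0.34 in T11, from -0.97 to -0.40 in 2208L (median -0.71) and at -0.39 and -0.03 in 2225L. Its difference of 2151R from 2208L was 0.69 (SE 0.12, limma adjusted p 0.00047), or 1.61-fold. Neither gene overlapped between 2151R and 2208L, and T11 lay above all of 2208L for both.

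In 2225L against 2208L only 1 of the subunits was called. Gclm was higher than in 2208L by 0.49 (SE 0.16, limma adjusted p 0.0325), whereas Gclc did not pass (0.20, 95% interval -0.21 to 0.61), although the difference between the subunits was not tested. The Gclm call was lost without replicate 2 of 2225L (0.31, limma adjusted p 0.28), without replicate 8 of 2208L (0.47, limma adjusted p 0.0503), without the 3 tumours with high muscle markers (0.47, limma adjusted p 0.085) and with library prefix as a covariate (0.40, limma adjusted p 0.0724). It was also lost with sample weights (0.42, limma adjusted p 0.337), with only these models in the fit (limma adjusted p 0.0841) and with only the PBS tumours of 2208L (limma adjusted p 0.0656). Against 2151R, Gclc was lower in 2225L (difference -0.69, SE 0.21, limma adjusted p 0.0152), which was lost without replicate 2 of 2225L (-0.41, limma adjusted p 0.194). This Gclc call was also lost with sample weights (-0.72, limma adjusted p 0.0884), with only these models in the fit (limma adjusted p 0.0514) and with library prefix as a covariate (-0.54, limma adjusted p 0.0586). Gclm shares 296 of its 6291 exon bases with Gm17494 on the other strand and 244 with Gm6061, a transcribed processed pseudogene on the same strand, so its values may include reads of both.

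**Figure D3:**
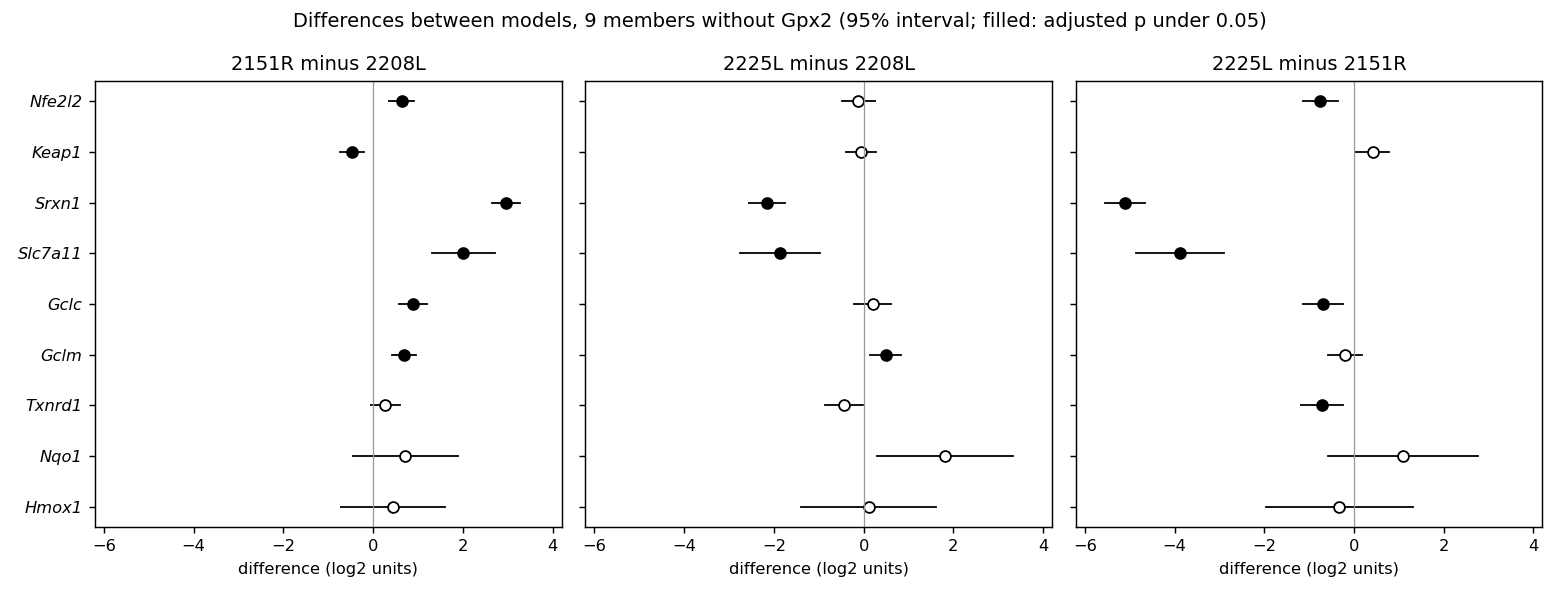
Differences between models in log2 units (horizontal axes) for the 9 members other than Gpx2, with 95% intervals from limma; filled points have an adjusted p under 0.05. Srxn1 and Slc7a11 lie far above 0 in 2151R minus 2208L (2.96 and 2.01) and far below 0 in 2225L minus 2208L (-2.15 and -1.87), while the intervals of Hmox1 include 0 throughout.

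Txnrd1, the cytosolic thioredoxin reductase, was called only between 2225L and 2151R. It lay at 0.54, 0.13, 0.14 and 0.34 in 2151R, at -0.46 in T11, from -0.39 to 0.23 in 2208L (median 0.13) and at -0.29 and -0.56 in 2225L. The values of 2151R overlapped those of 2208L, and the difference of 0.27 did not pass (95% interval -0.06 to 0.60). T11 lay below all tumours of 2151R and 2208L here, unlike at Srxn1, Slc7a11, Gclc and Gclm. Txnrd1 was lower in 2225L than in 2151R (difference -0.71, SE 0.22, limma adjusted p 0.0152), or 1.64-fold. That call was lost without replicate 2 of 2225L (-0.58, limma adjusted p 0.116), after quantile normalization (-0.50, limma adjusted p 0.0526) and with sample weights (-0.76, limma adjusted p 0.0801). Between 2225L and 2208L the difference of -0.44 did not pass (limma adjusted p 0.103), but it did without replicate 5 of 2208L (-0.50, limma adjusted p 0.0462).

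Nqo1, the quinone reductase most used as a readout of Nrf2, differed more within 2208L than between most models. In 2208L replicates 7, 2 and 3 lay at -3.30, -2.42 and -1.51, and the other 5 from -0.65 to -0.08, a 9.32-fold range. Replicate 7 is titled 3day nt and replicates 2 and 3 are titled PBS, so the low values are in both subsets. In 2151R the values were close together, at -0.37, -0.56, -0.37 and -0.48, inside the range of 2208L. T11 lay at 0.53, and 2225L at 0.00 and 1.30, above all of 2208L. No comparison of Nqo1 passed. The differences were 0.72 for 2151R minus 2208L (95% interval -0.46 to 1.90), 1.82 for 2225L minus 2208L (95% interval 0.29 to 3.34, limma adjusted p 0.065) and 1.10 for 2225L minus 2151R (95% interval -0.57 to 2.77). The second of these passed with only the PBS tumours of 2208L (1.88, limma adjusted p 0.0217), without replicate 7 (1.51, limma adjusted p 0.0462) or replicate 8 of 2208L (1.97, limma adjusted p 0.0465), and without the 3 tumours with high muscle markers (2.13, limma adjusted p 0.0434). With sample weights the first passed (0.92, limma adjusted p 0.0429). Genes like Nqo1 over the 15 tumours included Smim10l2a (Pearson r 0.88) and Tdrp (0.816), a much looser likeness than that of Gpx2 to its nearest genes.

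Hmox1, which opens the haem ring and is abundant in macrophages that clear red cells, also varied within models. In 2151R it was -0.49, 1.5, -0.42 and 0.36. In 2208L it was 2.03 in replicate 6 and from -1.21 to 0.10 in the other 7, a 9.43-fold range in all. T11 lay at 0.45 and 2225L at -0.26 and 0.08. The models overlapped, and no comparison passed, with 95% intervals of -0.72 to 1.60 for 2151R minus 2208L, -1.39 to 1.61 for 2225L minus 2208L and -1.97 to 1.32 for 2225L minus 2151R. Replicate 6 had the highest macrophage score of 2208L (0.50) and the highest skeletal muscle score of all tumours (9.10), and replicate 2 of 2151R had the highest macrophage score of its model (0.97). Replicate 1 of 2151R had a nearly equal macrophage score (0.94) but the lowest Hmox1 value of its model (-0.49). The part of these markers in the Hmox1 values was not tested.

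Within 2208L, none of the 10 members passed between PBS and 3day nt tumours by limma, where 34.0% of all genes were called, 17.4% higher in PBS and 16.5% lower. Without the 2 tumours of 3day nt with high muscle markers, 76 genes were higher and 22 lower, but 1 tumour was left in that group, and the spread then came from the PBS tumours alone. Nfe2l2 was 0.33 higher in PBS (95% interval 0.05 to 0.60, limma adjusted p 0.0658) and Gpx2 lower by -0.45 (95% interval -0.82 to -0.08, limma adjusted p 0.0636), and the groups did not overlap at these 2 genes. They were the 2 of 10 with an unadjusted p under 0.05, as were 47.0% of all genes, and 44.8% of all genes did not overlap. With each sample centred on its median, Nfe2l2 (0.39, limma adjusted p 0.016) and Gclc (0.35, limma adjusted p 0.0108) passed. Without replicate 5, Nfe2l2 (0.38, limma adjusted p 0.0288) and Gclc (0.38, limma adjusted p 0.0171) also passed. The subset shift of Nfe2l2 (0.33) stood beside 0.64 for 2151R minus 2208L and -0.12 for 2225L minus 2208L, and that of Gclc (0.28) beside 0.89 and 0.20. Srxn1 differed by 0.17 between the subsets (95% interval -0.25 to 0.59), beside 2.96 and -2.15.

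Further targets of Nrf2 did not share a direction either. Of 23 in the table, 7 were higher in 2151R than in 2208L and 6 were lower, with a median difference of 0.07, close to the 0.10 of all genes. Aox1, an aldehyde oxidase, was higher by 2.14 (SE 0.22), averaging 1.82 ± 0.27 (SD, n = 4) in 2151R against -0.33 ± 0.43 (SD, n = 8) in 2208L. Mgst1, a membrane glutathione transferase, was lower (difference -4.26, SE 0.38), as was Gsta4, which conjugates the lipid aldehyde hydroxynonenal (-2.55, SE 0.32). Akr1b8, Gstm1, Abcc1, Ugdh, Pgd and Gsr were the other 6 that were higher. Osgin1 (-1.78), Me1 (-1.24), Taldo1 (-0.90) and Prdx1 (-0.76) were the others that were lower. In 2225L against 2208L, 4 were higher and 4 lower, with a median of 0.36 against -0.04 for all genes. Cbr3, a carbonyl reductase, was higher by 3.77 (SE 0.44), Gsta4 by 2.70 (SE 0.41) and the epoxide hydrolase Ephx1 by 2.33 (SE 0.32). Aox1, Abcc1, Me1 and Osgin1 were lower. In 2225L against 2151R, 7 were higher and 5 lower, led by Gsta4 (5.24, SE 0.45), Mgst1 (5.18, SE 0.53) and Gsta3 (4.41, SE 1.38). Each of these calls had a limma adjusted p under 0.05, as had 48.8%, 32.9% and 48.6% of all genes in these comparisons, in the order given. Without the 3 tumours with high muscle markers the counts were 6 higher and 4 lower, 5 and 3, and 6 and 5. Gsr, Prdx1 and Taldo1 were then not called in the first comparison, Abcc1 in the second and Tkt in the third, while Gstm1 was called higher in the second.

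**Figure D4:**
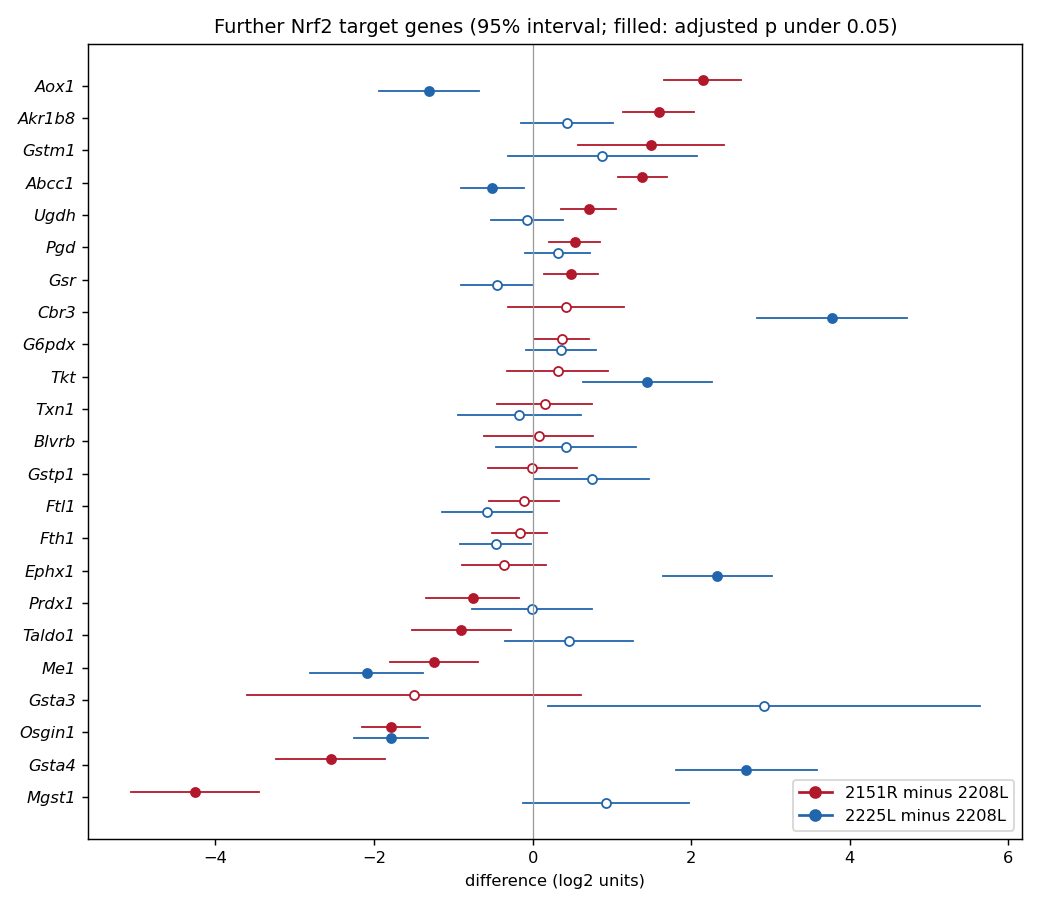
Differences in log2 units (horizontal axis) of 23 further Nrf2 target genes in 2151R (red) and 2225L (blue), each minus 2208L, with 95% intervals from limma; filled points have an adjusted p under 0.05. The comparisons share the 2208L tumours; Aox1 lies at 2.14 and -1.30, Gsta4 at -2.55 and 2.70, and Osgin1 below 0 in both.

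Partners and regulators of Nrf2 differed most at Nfe2l3, the gene of the related factor Nrf3. Nfe2l3 averaged -5.03 ± 0.52 (SD, n = 4) in 2151R against 0.63 ± 0.24 (SD, n = 8) in 2208L, lay at -5.63 in T11 and averaged 0.32 ± 0.45 (SD, n = 2) in 2225L. It was lower in 2151R than in 2208L (difference -5.66, SE 0.22, limma adjusted p 2.21e-10). Of the 12 genes on this list, 1 was higher and 3 lower in that comparison, where 26.1% of all genes were higher and 22.7% lower. Bach2, a repressor that competes for the same sites, was at -2.02 (SE 0.29) and Nfe2l1 at -0.56 (SE 0.15). Cul3, the ligase scaffold that Keap1 uses, was the 1 that was higher (0.45), and it was no longer called without the 3 tumours with high muscle markers. In 2225L against 2208L, 1 was higher and 6 lower, where 15.6% of all genes were higher and 17.3% lower. The list had a median of -0.53 against -0.04 for all genes. Bach1, which represses Hmox1, differed by -1.33 (SE 0.24), Nfe2l1 by -1.33 (SE 0.19) and the Nrf2 partner Mafg by -1.06 (SE 0.23). Sqstm1, which draws Keap1 into autophagy and is itself a target, differed by -0.83. In 2225L against 2151R, 3 were higher and 6 lower, where 22.8% of all genes were higher and 25.8% lower. Among the called genes of the list were Nfe2l3 (5.35, SE 0.31), Bach2 (1.51, SE 0.42) and Bach1 (-1.23, SE 0.26). Cul3 was among the 6 lower there (-0.53), and was not called without the 3 tumours with high muscle markers (limma adjusted p 0.0647).

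In the thioredoxin system, 1 of 9 genes was higher in 2151R than in 2208L and 2 were lower, where 26.1% of all genes were higher and 22.7% lower. Prdx2 and Prdx3, the cytosolic and mitochondrial peroxiredoxins that sulfiredoxin repairs, differed by -1.30 (SE 0.23, limma adjusted p 0.000364) and -0.92 (SE 0.27, limma adjusted p 0.013), so they were lower where Srxn1 was higher. Txnrd3 was higher by 0.58 (SE 0.17). Without the 3 tumours with high muscle markers, Prdx3 was not called (-0.84, limma adjusted p 0.0524). Txn2 (1.12, SE 0.34) and Txnrd3 (0.77, SE 0.22) were higher in 2225L than in 2208L, as were 15.6% of all genes. In 2225L against 2151R, Prdx3 (1.56, SE 0.38), Prdx2 (1.33, SE 0.32) and Prdx6 (0.88, SE 0.33) were higher and none was lower, where 22.8% of all genes were higher and 25.8% lower. Prdx6 was not called without the 3 tumours with high muscle markers (0.91, limma adjusted p 0.074). Within 2208L, 5 of the 9 were lower in PBS than in 3day nt tumours and 0 higher, where 16.5% of all genes were lower. Txn2 differed there by -1.01 (limma adjusted p 0.00671), Prdx3 by -0.69 (limma adjusted p 0.0266) and Prdx2 by -0.61 (limma adjusted p 0.0188). These shifts stood beside 1.12 for Txn2 in 2225L minus 2208L, and -0.92 for Prdx3 and -1.30 for Prdx2 in 2151R minus 2208L. Of the 3day nt tumours, 2 had high muscle markers.

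T11, with a single tumour, carries no test. It lay outside the range of 2208L at 9 of the 10 members, with Hmox1 the exception, and at 57.5% of all genes. Against the 2208L mean it was higher by 2.29 at Slc7a11, 1.70 at Nqo1, 1.21 at Nfe2l2, 1.04 at Srxn1, 1.04 at Gclm and 0.75 at Gclc, and lower at Keap1 (-0.43), Txnrd1 (-0.48) and Gpx2 (-11.07). The Keap1 difference was -0.58 with samples centred on their medians and -0.65 after quantile normalization. T11 lay within the range of 2151R at Keap1, Gpx2, Slc7a11 and Hmox1. Nfe2l2, Nqo1 and Gclm lay above that range, and Gclc, Txnrd1 and Srxn1 below it.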

How the data were processed

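The values are log2 values of 17271 genes in 15 samples, in a single table that the authors deposited with no missing value. Per the submitters' processing notes, STAR, Salmon and mm10 were used, with no version or order. The annotation, the offset before the logarithm and the scaling between samples are not given in the sources used here. The name of the table gives a median reference per gene, but only 6.51% of genes have a median of exactly 0 over these samples. In 727 genes samples share an exact value, which was used as deposited.

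Models and subsets were taken from sample titles. Replicate numbers follow accession order and pair no samples. Genes were fitted with limma 3.58.1 in R 4.3.3 (lmFit, eBayes, no trend) to the deposited values. All 15 samples entered a single fit for the 3 comparisons between models, and 7 samples that of PBS with 3day nt. All genes were tested, and a gene was called at a p-value under 0.05 after Benjamini-Hochberg adjustment. The fit was tested on simulated data. Intervals are 95% intervals of the fit. Named genes are the 10 members, the glutathione peroxidases, the 3 called genes with the largest difference of each further list, and the 3 genes most correlated with Gpx2 and Nqo1, without genes with shared values or predicted symbols. A gene that this rule names is not reported here. Cul3, Sqstm1 and the remaining called targets were named after their values were seen. The members and lists were chosen with earlier results of these data known. Marker scores are means of gene-centred values. Gene positions are from GENCODE M21 and promoters from RefSeq, both on GRCm38, the assembly behind mm10.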

Additional observations from a re-analysis of the deposited data

Results flagged for a closer look

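Among 30 groups of 4 or 8 values (each member in 2151R, 2208L and 2208L PBS), 3 held a value far from the rest, where chance gives about 1 in 20, or 1.5. Hmox1 was 2.03 in replicate 6 of 2208L, and the other 7 tumours lay from -1.21 to 0.10. Txnrd1 was -0.39 in replicate 5 of 2208L, and the other 3 PBS tumours lay from 0.18 to 0.23. Srxn1 was -0.70 in replicate 7 of 2208L, and the others lay from -0.32 to 0.00. Replicate 7 also had the lowest Nqo1 value of all 15 tumours (-3.30).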

How the results depend on the processing

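No paired analysis was possible because no title gives a replicate number that would tie samples of different groups together. Srxn1 kept its calls between models in all alternatives run, as did Gpx2 and Slc7a11 in both comparisons with 2151R, while the calls of the report that rest on replicate 2 of 2225L are named there. The cause of the changes below was not tested unless the setting itself shows it.

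For 2151R minus 2208L (5 members higher, 2 lower), a minimum difference of 1 log2 unit left 2 higher and 1 lower, and 2585 of all genes higher and 2566 lower. Leaving out the 25% of genes with the smallest SD removed Nfe2l2, Keap1, Gclm and Txnrd1 from the test and left 3 higher and 1 lower. Without the 3 tumours with high muscle markers 1 was lower.

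For 2225L minus 2208L (2 higher, 2 lower), 1 was higher with an intensity trend, without the genes of smallest SD, with the minimum of 1 log2 unit, with only these models in the fit and with library prefix as a covariate. Sample weights left 0 higher and 1 lower, and 958 of all genes higher and 1200 lower. Leaving out each replicate in turn gave 0 to 3 higher and 1 to 3 lower. Values that changed sign were those of genes not called. With only PBS tumours of 2208L, Keap1 was 0.045, and with only 3day nt tumours Nfe2l2 was 0.051 and Hmox1 -0.18. Leaving out each replicate in turn, Keap1 ran from -0.24 to 0.12, Gclc from -0.071 to 0.48 and Hmox1 from -0.056 to 0.43.

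For 2225L minus 2151R (1 higher, 5 lower), 2 were higher with samples centred, with quantile normalization and with 2208L split into its 3 subsets. Lower calls numbered 3 without the genes of smallest SD, 2 with the minimum of 1 log2 unit and 2 with sample weights, which called 2529 of all genes higher and 2723 lower. Leaving out each replicate in turn gave 1 to 2 higher and 3 to 5 lower, and Hmox1 from -0.57 to 0.093.

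For PBS minus 3day nt (0 higher, 0 lower, and 3007 and 2857 of all genes), 2 members were higher with samples centred and with quantile normalization, which turned Nqo1 to -0.048 and Gclm to -0.022. Sample weights, whose fit did not converge, called 4 higher and 2 lower, 5938 and 5754 of all genes, and turned Nqo1 to -1.31 and Hmox1 to 0.34. The minimum of 1 log2 unit left 1206 and 1002 of all genes. With muscle markers as a covariate 83 and 36 were left, with Gclm at -0.014 and Hmox1 at 0.049. Without the tumours with high muscle markers, where 1 tumour of 3day nt is assumed to vary like the PBS tumours, 76 and 22 were left, with Hmox1 at 0.52 and Txnrd1 at -0.12. Leaving out each replicate in turn gave 0 to 2 members higher, 1362 to 3988 of all genes higher and 1017 to 3111 lower. It gave Nqo1 from -1.0 to 0.61, Gclm from -0.051 to 0.14, Hmox1 from -0.92 to 0.54 and Srxn1 from -0.014 to 0.32. The table holds no counts, so what depth limits is not known. Precision is limited by the 2 tumours of 2225L and the 1 of T11.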

Other observations

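Slc7a11 is also a target of Atf4, the transcription factor of the amino acid stress response, so a list of Atf4 and 7 related genes was read beside it. In 2151R against 2208L, 4 of these 8 genes were higher and 2 lower by limma, where 26.1% of all genes were higher and 22.7% lower. Asns, asparagine synthetase, averaged 2.97 ± 0.22 (SD, n = 4) in 2151R against -0.44 ± 0.27 (SD, n = 8) in 2208L, and the groups differed by 3.41 (SE 0.17, limma adjusted p 2.18e-09). Chac1, which degrades glutathione, was higher by 2.20 (SE 0.43, limma adjusted p 0.000914), and Trib3 was lower (-1.88, SE 0.21, limma adjusted p 6.09e-06). In 2225L, where Slc7a11 was lowest, Psat1 (1.55, SE 0.16), Asns (1.12, SE 0.21) and Atf4 (0.72, SE 0.22) were higher than in 2208L, as were 15.6% of all genes. Slc3a2, the heavy chain that carries the Slc7a11 protein to the membrane, did not pass in either comparison (0.12 and 0.29). In T11, Slc7a11 lay at 1.62 but Asns at -0.47, close to the 2208L mean.

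Within 2208L, 4 of 5 further glutathione peroxidases (Gpx1, Gpx4, Gpx7 and Gpx8) were lower in PBS than in 3day nt tumours by limma, where 16.5% of all genes were called lower. The differences were -0.72, -0.75, -1.83 and -0.79. The library numbers of PBS and 3day nt form separate runs, so the subset and the library series cannot be told apart here either. Of the 3day nt tumours, 2 had skeletal muscle scores of 9.10 and 8.56. Without them the median difference of the 5 was -0.61, with 1 tumour left on that side and the spread from the PBS tumours alone. Whether the 4 calls hold without these 2 tumours can therefore not be judged.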
